A study of Mus musculus with 7 samples.

Results

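Interferon-stimulated genes were followed in hematopoietic stem cells (HSCs) that had lost ferritin heavy chain 1 (Fth1), the iron-storing subunit of ferritin. The set holds 45 genes, taken as the rows of the deposited expression table whose Ensembl identifiers carry the 45 listed symbols in GENCODE mouse release 21, out of 55855 identifiers in the table. The symbols were listed by function, with earlier results of these data known. Bulk polyA RNA-seq had been made from HSCs of mouse bone marrow at 2 months of age. The control group was Fth1fl/fl (3 libraries), with both Fth1 alleles flanked by recombination sites and intact, and the second group was Fth1△/△ (4 libraries), with Fth1 deleted in the hematopoietic system. The series text also calls the controls wild type. The Cre driver, the surface markers of the sort and the sex of the mice are not given in the sources used here. Replicate numbers are given, but not whether each library came from a separate mouse, so p-values measure only the spread between these libraries.

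Interferons are secreted proteins that warn cells of infection. Type I interferons bind the receptor pair IFNAR1 and IFNAR2, and interferon-gamma binds IFNGR1 and IFNGR2. Both receptors act through Janus kinases on STAT proteins. The type I complex, which contains STAT2 and IRF9, binds the interferon-stimulated response element (ISRE), whereas the interferon-gamma branch acts through the gamma-activated site (GAS). The ISRE drives antiviral genes such as the Ifit, Oas, Mx and Isg15 genes. Interferon-gamma is the classical inducer of the guanylate-binding proteins (Gbp) and the immunity-related GTPases (Irg), which attack the vacuoles of intracellular pathogens. In bone marrow, interferon can drive quiescent HSCs into cycle. Part of the program, the Ifitm genes among it, is held at a constitutive level in stem cells.

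Values are FPKM, read fragments normalised to gene length and library depth. A difference is the Fth1-deleted mean less the control mean of log2(FPKM + 1), a scale that understates the change of low genes. It was tested with limma over the 13948 genes whose FPKM averaged 1 or more. All 45 members passed that filter. Ifi27l2a, Mx2 and Cxcl10 passed only through the Fth1-deleted group, since their control means were 0, 0.847 and 0.865 FPKM. Gbp6 passed only through the control group, with an Fth1-deleted mean of 0.644 FPKM. Where these genes are counted below as higher or lower, the filter favoured that direction. A gene was called at a Benjamini-Hochberg adjusted p under 0.05. For single genes an exact two-sided permutation test was added, in which 3 against 4 libraries cannot give a p below 0.0286.

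Libraries held 12058392 to 15453168 counted reads, as recovered from the FPKM steps. Fth1 itself measured 552, 659 and 638 FPKM in control libraries 1 to 3, and 202, 333, 358 and 114 in Fth1-deleted libraries 1 to 4, so that 40.8% of the control mean was left. The groups did not overlap, and Fth1 was not called (log2 difference -1.42 ± 0.33 (SE), limma adjusted p = 0.193). The floxed exons are not given in the sources used here, so reads outside them cannot be set apart. Control 2 stood apart on the first principal component, at -101 against -15.1 to 39.4 in the other libraries. Ribosomal RNA genes took 0.266% to 1.09% of the reads in control and 1.44% to 1.57% in Fth1-deleted libraries, without overlap. Reads of Y-linked genes were present in control 2 and in Fth1-deleted 1, 2 and 3, and absent from the other libraries. The summed FPKM of 10 HSC markers was 930 to 1591 in control and 653 to 894 in Fth1-deleted libraries. In bulk samples, fewer cells of a type and less RNA per cell cannot be told apart.

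The promoters show which of these genes carry the letters of the interferon-response elements next to their starts. RefSeq windows of 300 bases (GRCm38.p6, from 250 bases before to 50 after the start) were matched by symbol for 34 of the 45 members. Both strands were searched for the ISRE core GAAANNGAAA and for the GAS letters TTCNNNGAA, and matches were allowed to overlap. The ISRE core stood in 58.8% of the 34 matched members (20 genes), against 3.99% of all 27025 genes with such a window. GAS letters stood in 29.4% of them (10 genes), against 9.55% of all genes. The sequences below are the 150 bases before the start, in gene orientation, with ISRE and GAS matches in capitals. They are shown for 3 GTPase genes whose means were lower after deletion (Gbp7, Igtp, Irgm2), for Ifi47, the only GTPase gene that was higher in every Fth1-deleted than in every control library, and for 2 antiviral genes whose groups overlapped (Isg15, Oas1a). All 6 windows lie outside annotated exons.
Gbp7, chr3:142530186-142530335, + strand: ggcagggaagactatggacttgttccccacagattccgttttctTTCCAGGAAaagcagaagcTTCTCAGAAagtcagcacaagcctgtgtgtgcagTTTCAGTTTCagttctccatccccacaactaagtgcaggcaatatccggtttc
Igtp, chr11:58199406-58199555, + strand: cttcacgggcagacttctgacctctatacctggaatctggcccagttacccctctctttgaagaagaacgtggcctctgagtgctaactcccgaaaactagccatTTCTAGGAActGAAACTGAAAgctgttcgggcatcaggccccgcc
Irgm2, chr11:58214827-58214976, + strand: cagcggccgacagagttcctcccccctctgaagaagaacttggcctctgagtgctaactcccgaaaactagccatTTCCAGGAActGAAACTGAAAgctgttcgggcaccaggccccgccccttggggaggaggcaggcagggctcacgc
Ifi47, chr11:49076437-49076586, + strand: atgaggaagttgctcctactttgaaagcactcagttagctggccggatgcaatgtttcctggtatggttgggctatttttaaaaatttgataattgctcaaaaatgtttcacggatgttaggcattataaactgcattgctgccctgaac
Isg15, chr4:156200819-156200968, - strand: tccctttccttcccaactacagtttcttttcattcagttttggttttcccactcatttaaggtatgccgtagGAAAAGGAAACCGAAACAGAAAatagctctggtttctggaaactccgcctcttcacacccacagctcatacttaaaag
Oas1a, chr5:120907526-120907675, - strand: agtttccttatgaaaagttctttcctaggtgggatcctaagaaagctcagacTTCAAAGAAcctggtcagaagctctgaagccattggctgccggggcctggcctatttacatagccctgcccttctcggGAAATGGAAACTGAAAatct

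Igtp and Irgm2 hold the same ISRE letters, GAAACTGAAA, each preceded by a GAS match, whereas Isg15 holds 3 overlapping ISRE matches and no GAS match. These windows do not stand for their roles. GAS letters were found in 3 of 7 matched GTPase genes, which are the printed Gbp7, Igtp and Irgm2. They were found in 2 of 8 antiviral effectors (Ifit2 and Oas1a). The Ifi47 window held neither set of letters. By role, the ISRE core was found in 6 of 7 matched GTPase genes (Gbp2, Gbp3, Gbp7, Igtp, Irgm1 and Irgm2), in 5 of 8 antiviral effectors (Ifit1, Ifit3, Isg15, Oas1a and Oas3) and in both matched RNA sensors (Ddx58 and Ifih1). Of the IFITM genes, Ifitm2 and Ifitm3 held it and Ifitm1 did not. None of the 4 receptor genes held it, and of the 4 transcription factor genes 1 did (Stat2). A match is a run of letters in this window and not a bound site.

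No member was called in either direction (0 of 45), beside 0.0574% of all genes tested (8 of 13948; 0.0287% higher and 0.0287% lower). Member adjusted p-values ran from 0.121 (Ifitm1) to 0.987 (Zbp1) in limma. At an unadjusted p under 0.05 stood 9 members (20% of 45), against 9.83% of all genes tested. Of these, 5 were higher (Oas2, Ifitm2, Usp18, Ifi27l2a, Ifi47; background 4.9%) and 4 lower (Ifitm1, Gbp2, Irgm2, Iigp1; background 4.93%). In 6 members (13.3%) the groups did not overlap, against 9.65% of all genes tested. Oas2, Ifitm2 and Ifi47 were higher in every Fth1-deleted library (6.67% of members, background 4.1%), and Ifitm1, Gbp2 and Gbp6 were lower in every one (6.67%, background 5.55%). The member differences were negative in 30 of 45 genes (66.7%), against 51.3% of all genes tested. Their median was -0.13, beside -0.02 over all genes tested. With this few libraries, a missing call does not show that a gene was unchanged.

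**Figure D1:**
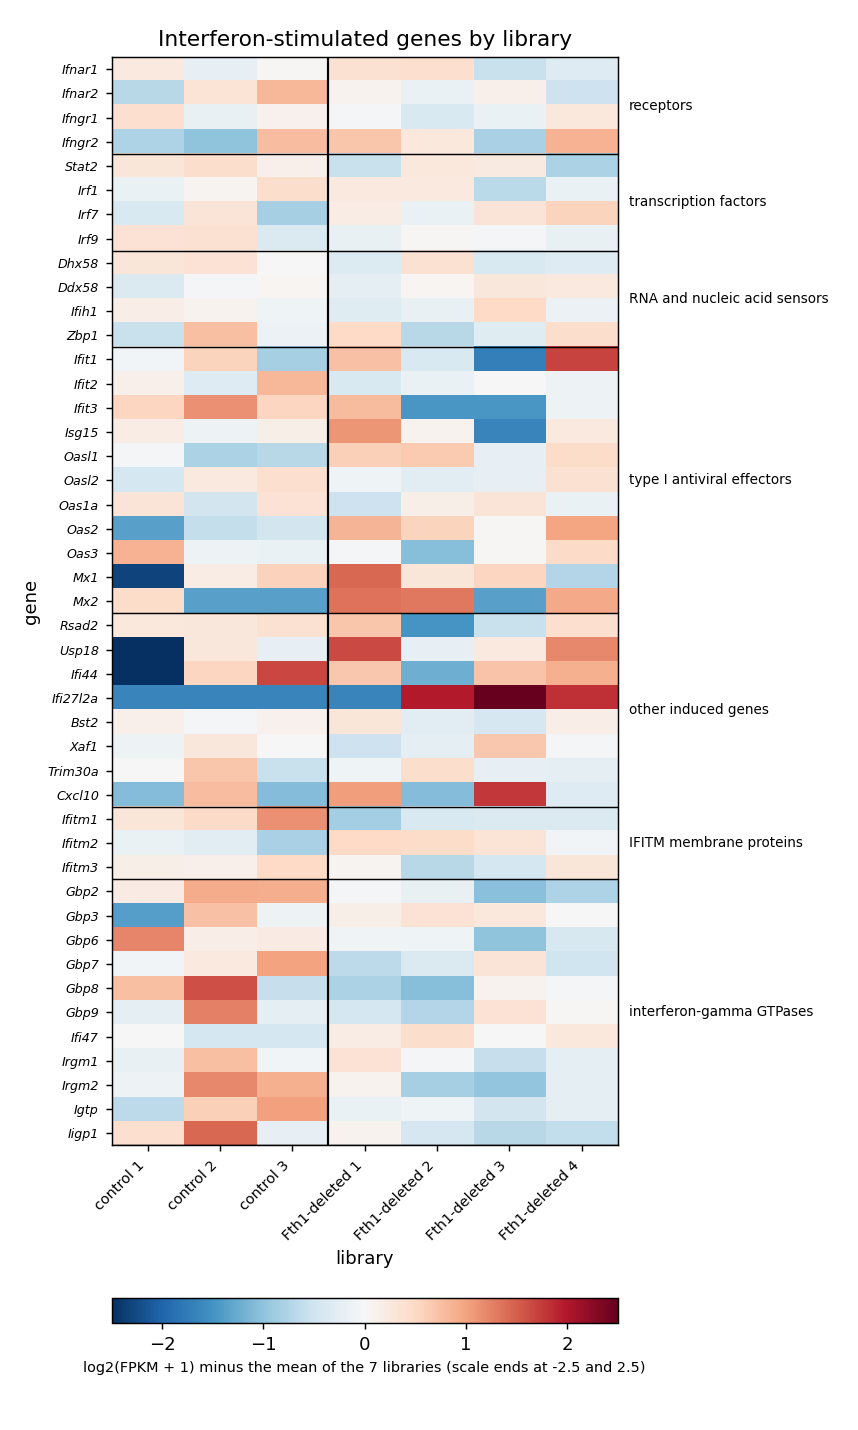
Each cell is the log2(FPKM + 1) of 1 member (rows, grouped by role) in 1 library (columns), minus that gene's mean over the 7 libraries; blue is lower and red higher. The Gbp and Irg rows are mostly red in 1 control column, that of the library that stood apart over all genes. The other control columns hold both red and blue Gbp and Irg rows. The antiviral rows vary from library to library in both groups.

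**Figure D2:**
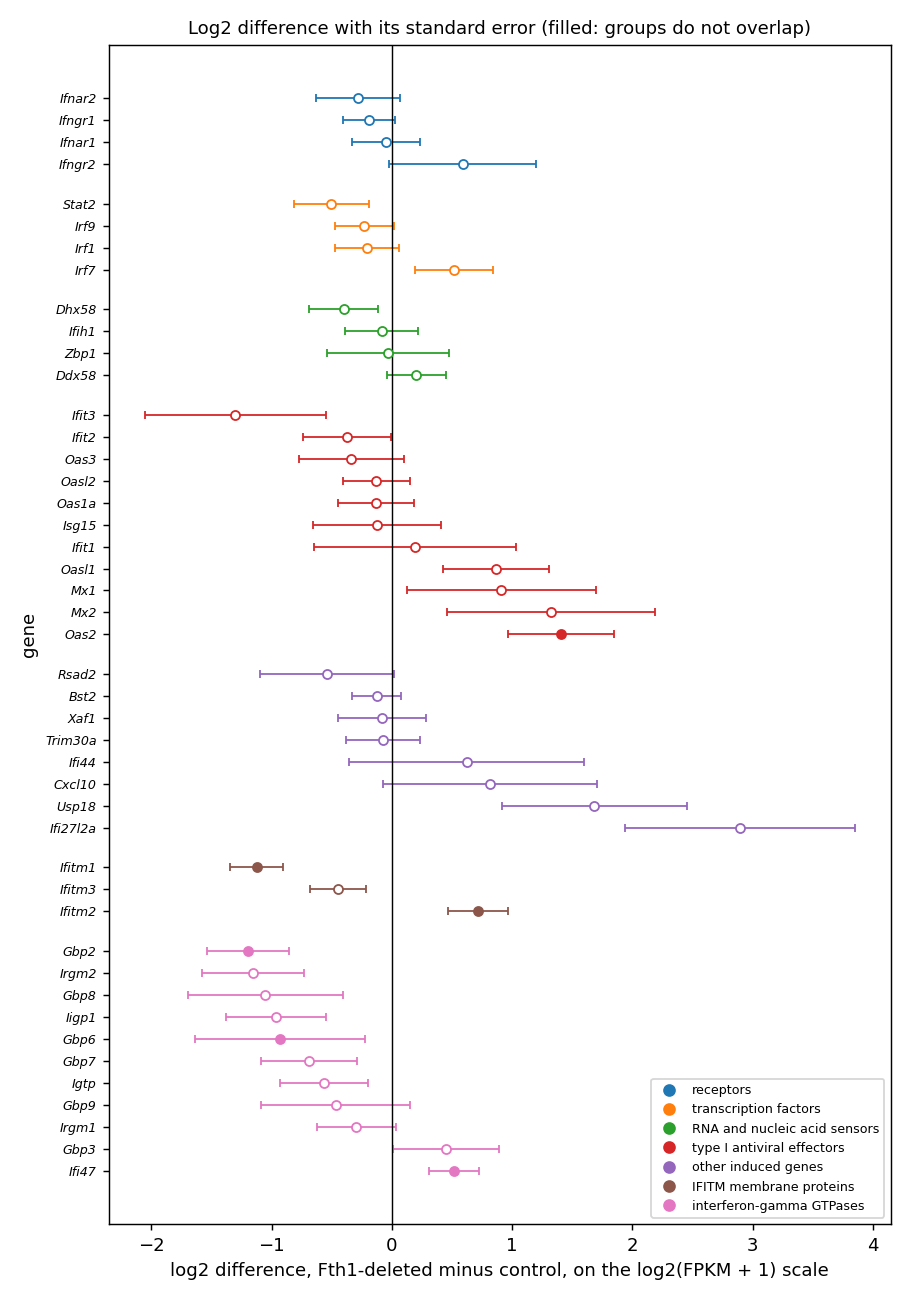
Points are the log2 difference of each member (x axis, positive where the Fth1-deleted mean is higher) with bars of 1 standard error, by role. Filled points mark the 6 members whose groups did not overlap, 3 on each side of 0.

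The ligands of the pathway were almost absent. Of 21 interferon genes listed, 20 had a value of 0 in all 7 libraries, among them Ifnb1, the gene for interferon-beta, and Ifng, the gene for interferon-gamma. Ifnz, which belongs to a cluster of closely related copies, had 39 reads in control 3 and 21 reads in Fth1-deleted 4 and none elsewhere. A value of 0 says that no read was counted in HSC libraries; interferon made by other bone marrow cells is outside these data.

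All 4 receptor chains were transcribed, and none separated the groups. Ifngr1, the ligand-binding chain for interferon-gamma, was the most abundant at 152, 100.2 and 123 FPKM in control libraries and 111, 87.5, 102 and 137 in Fth1-deleted ones. Its partner Ifngr2 was far lower, at 3.20, 2.57 and 11.2 FPKM in control and 10.5, 7.56, 3.08 and 12.1 after deletion. Ifnar1 measured 65.5, 48.2 and 56.7 FPKM against 72.8, 74.1, 37.4 and 43.8. The values of each of these chains overlapped between the groups. Ifnar2, the high-affinity chain for type I interferon, had 23.6, 49.4 and 69.6 FPKM in control libraries and 41.5, 34.2, 42.2 and 26.7 in Fth1-deleted ones, all 4 of them within the control range. The 4 receptor genes had limma adjusted p-values of 0.772 to 0.968.

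The kinases below the receptors were present in every library. Jak1, the kinase common to both receptors, had 228, 285 and 306 FPKM in control and 171, 237, 282 and 217 after deletion. Jak2, bound to IFNGR2, measured 25.9, 39.1 and 33.8 FPKM against 25.6, 32.6, 30.4 and 27.9. Tyk2, bound to IFNAR1, measured 32.7, 24.1 and 22.9 FPKM against 34.0, 34.9, 28.4 and 32.0. The groups overlapped for all 3 kinases. Socs1, an inducible inhibitor of the Janus kinases, had 0.886, 4.97 and 8.39 FPKM in control and 4.68, 12.4, 10.4 and 11.9 after deletion. Only Fth1-deleted 1 lay within the control range for Socs1, and limma gave an adjusted p of 0.596.

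Among the transcription factors, the groups overlapped for all 4. Stat2, the STAT particular to the type I complex, had 47.3, 52.6 and 41.8 FPKM in control. Its Fth1-deleted values were 25.7, 46.3, 44.8 and 21.9, so that Fth1-deleted 1 and 4 lay below every control and the other two did not (log2 difference -0.50 ± 0.31 (SE), limma adjusted p = 0.631; -0.31 without Fth1-deleted 4). Irf9, which gives the complex its DNA contact, measured 67.1, 68.6 and 40.5 FPKM against 45.6, 53.3, 50.3 and 45.8. Irf1, a direct GAS target that activates the Gbp genes, measured 61.7, 72.7 and 93.8 FPKM against 81.3, 81.5, 43.0 and 61.5. Irf7, which amplifies type I interferon and is itself induced by it, had 22.4, 37.3 and 16.3 FPKM in control and 33.6, 26.5, 37.3 and 43.8 after deletion (log2 difference 0.52 ± 0.33 (SE), limma adjusted p = 0.638). With the ribosomal RNA share as a covariate the sign of the Irf7 difference turned, to -0.39, and it was 0.83 without control 2 and 0.26 without control 3.

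The cytosolic sensors were the steadiest group in control, with a median coefficient of variation between control libraries of 14.2%, against 38.1% over all genes tested. Ddx58, which encodes the RNA sensor RIG-I, had 31.5, 40.5 and 42.3 FPKM in control and 35.02, 42.7, 49.9 and 48.7 after deletion. Dhx58, encoding LGP2, measured 37.7, 39.5 and 30.5 FPKM against 23.7, 39.5, 22.9 and 24.0. In that gene 3 Fth1-deleted libraries lay below every control and Fth1-deleted 2 lay at the level of the highest control. Ifih1, encoding the long double-stranded RNA sensor MDA5, measured 27.7, 25.9 and 22.6 FPKM against 19.7, 21.4, 34.8 and 21.9. Zbp1, a sensor of left-handed nucleic acid, ranged over 5.19 to 14.5 FPKM in control and 4.63 to 11.9 after deletion. Sensor adjusted p-values in limma were 0.682 to 0.987.

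The 11 type I antiviral effectors did not move as a block: 6 differences were below 0 and 5 above, with a median of -0.12. That median was above 0 when Fth1-deleted 3 was left out (0.41), with the ribosomal RNA covariate (0.45), and in 3 other alternatives at smaller values. Oas2, an enzyme that makes the 2-5A activator of RNase L, stood out. It had 3.16, 6.07 and 6.74 FPKM in control libraries and 18.2, 14.6, 9.88 and 19.99 in Fth1-deleted ones, with every Fth1-deleted library above every control. The mean was 5.32 ± 1.90 against 15.7 ± 4.46 (SD, n = 3 and 4), 2.94-fold higher. The log2 difference was 1.40 ± 0.44 (SE), with a limma adjusted p of 0.352 and an exact permutation p of 0.0286, the smallest possible.

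The relatives of Oas2 did not share its values. Oas3, whose annotated end lies 3244 bases from Oas2 on chromosome 5, had 14.5 to 30.6 FPKM in control and 7.32 to 23.2 after deletion. Oasl1, which restrains Irf7 translation, had 8.74, 4.76 and 5.17 FPKM in control and 14.0, 14.5, 7.56 and 12.6 after deletion. Its lowest Fth1-deleted library lay within the control range and the others above it (log2 difference 0.87 ± 0.44 (SE), limma adjusted p = 0.559). Oasl2 was the most abundant antiviral effector, at 34.5, 56.4 and 64.2 FPKM against 43.8, 38.8, 41.2 and 61.7. Oas1a measured 38.9, 22.1 and 39.9 FPKM against 21.1, 34.1, 39.0 and 27.5. It is near-identical to Oas1g over most of its length, and together the pair summed to 38.9, 40.04 and 39.98 FPKM in control against 30.7, 34.4, 43.9 and 41.8. The groups overlapped for Oasl2, Oas1a and that sum.

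Isg15, the ubiquitin-like protein that is among the first products of a type I response, had 22.0, 17.5 and 21.4 FPKM in control and 42.1, 20.5, 5.44 and 23.0 after deletion. Both the highest and the lowest value of the 7 were Fth1-deleted, in libraries 1 and 3. Fth1-deleted 3 was also at 0 for Ifit1, Ifit3 and Mx2. Ifit3 measured 2.97, 5.07 and 2.99 FPKM against 3.75, 0, 0 and 1.51. However, 97.4% of its length is near-identical to Ifit3b, so its counts are uncertain. Ifit1 and Ifit2 spanned 0.843 to 3.85 and 12.9 to 29.8 FPKM in control, and 0 to 9.64 and 12.3 to 16.6 after deletion. The dynamin-like GTPases Mx1 and Mx2 spanned 0 to 6.40 and 0 to 2.54 FPKM in control, and 2.02 to 12.6 and 0 to 5.63 after deletion. Summed over the 11 effectors, the level was 164, 148 and 192 FPKM in control libraries and 194, 156, 143 and 200 in Fth1-deleted ones, overlapping fully.

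Of the 8 other induced genes, 4 differences lay on each side of 0. Bst2, the tetherin that holds budding virions at the membrane, was the most abundant, at 183, 165 and 180 FPKM against 206, 139, 125 and 187. Trim30a, a regulator of Toll-like receptor signalling, measured 52.9, 87.0 and 36.1 FPKM against 49.2, 72.6, 46.3 and 45.2. Xaf1, an antagonist of the caspase inhibitor XIAP, measured 15.9, 21.4 and 17.3 FPKM against 11.8, 14.5, 28.3 and 17.1. None of these 3 separated the groups. Usp18, the protease that removes ISG15 and dampens IFNAR2, had 0, 8.41 and 5.72 FPKM in control and 23.5, 5.72, 8.21 and 16.8 after deletion. Fth1-deleted 1 and 4 lay above every control and the other two within the control range (log2 difference 1.69 ± 0.77 (SE), limma adjusted p = 0.505). The difference was 0.69 without control 1, the library at 0, and 0.76 with the ribosomal RNA covariate.

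Ifi27l2a, an interferon-alpha-inducible gene of the Ifi27 family, was at 0 in all 3 controls and in Fth1-deleted 1, and at 11.4, 20.9 and 10.2 FPKM in Fth1-deleted 2, 3 and 4 (72, 124 and 70 reads). Against a floor of 3 reads per library, the Fth1-deleted mean was at least 22.2-fold higher. The fitted difference (2.89 ± 0.96 (SE), limma adjusted p = 0.377) depends on the pseudocount. Since Ifi27l2a already had the highest difference of all members, placing it at its bound cannot move their median of -0.13. Rsad2, encoding viperin, measured 9.80, 9.87 and 10.7 FPKM against 13.6, 2.26, 5.08 and 11.004, close together in control and on both sides of it after deletion. Ifi44 and the chemokine gene Cxcl10 spanned 0 to 29.4 and 0 to 2.60 FPKM in control, and 3.12 to 16.9 and 0 to 6.22 after deletion.

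The IFITM genes, whose products block virus fusion at endosomal membranes, held the largest share of the members' summed FPKM. Ifitm3 and Ifitm1 had the highest mean levels of the 45 members (411 and 338 FPKM over the 7 libraries), and their neighbour Ifitm2 went the opposite way to Ifitm1. Ifitm1 (chr7:140967221-140969825) had 375, 429 and 677 FPKM in control libraries and 170, 236, 239 and 238 in Fth1-deleted ones. Every Fth1-deleted library lay below every control, and 3 of the 4 were nearly equal. Its mean was 494 ± 161 against 221 ± 33.9 FPKM (SD, n = 3 and 4), 2.23-fold lower. The log2 difference was -1.12 ± 0.22 (SE), with a limma adjusted p of 0.121, the smallest of the 45 members, and an exact permutation p of 0.0286.

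Ifitm2 (chr7:140954837-140955987) lies 11233 bases from Ifitm1 on the opposite strand. It had 50.9, 47.6 and 32.0 FPKM in control and 81.3, 78.2, 72.2 and 54.7 after deletion, again without overlap and in the other direction. The mean was 43.5 ± 10.1 against 71.6 ± 11.9 FPKM (SD, n = 3 and 4), 1.65-fold higher. Limma gave a log2 difference of 0.72 ± 0.25 (SE) with an adjusted p of 0.390, and the exact permutation p was 0.0571. Ifitm2 has 40.9% of its exonic bases in common with Gm45717 on the same strand, which was at 0 in every library. It also has near-identical copies elsewhere, over up to 66% of its length (Gm11951), so its counts are uncertain. Ifitm1 has a near-identical copy too, Gm7676, over 36.2% of its length. The Ifitm1 to Ifitm2 ratio of FPKM was 7.37, 9.01 and 21.1 in control and 2.09, 3.01, 3.31 and 4.36 after deletion. That ratio was formed after the values were seen and was not tested.

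Ifitm3 (chr7:141009586-141010770) had 437, 433 and 562 FPKM in control and 415, 246, 293 and 488 after deletion. Fth1-deleted 4 lay within the control range and the others below it (log2 difference -0.45 ± 0.23 (SE), limma adjusted p = 0.576; -0.28 without Fth1-deleted 2). With the ribosomal RNA covariate the differences of Ifitm1, Ifitm2 and Ifitm3 were nearer to 0, at -0.75, 0.40 and -0.22, and with the Y-linked term that of Ifitm3 was -0.26. The 3 genes summed to 863, 910 and 1271 FPKM in control libraries and 666, 560, 604 and 782 in Fth1-deleted ones, without overlap. HSC markers were lower over the same libraries (8 of 10 markers with a difference below 0, summed levels above), and their part in the Ifitm result was not tested.

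The interferon-gamma GTPases had 9 of 11 differences below 0, where 51.3% of all genes tested were below 0. Their median was -0.69, beside -0.02 over all genes tested. Their mean log2(FPKM + 1) was 3.95, 4.72 and 4.17 in control libraries and 3.83, 3.68, 3.62 and 3.71 in Fth1-deleted ones, so that the groups did not overlap, by a narrow margin between control 1 and Fth1-deleted 1. The same mean for the antiviral effectors was 3.18, 3.19 and 3.28 in control and 3.87, 3.31, 2.83 and 3.71 after deletion, with overlap. Control 2 was the highest library for the GTPases and also the one that stood apart over all genes; without it their median was -0.52. On the linear scale the sums overlapped, at 232, 378 and 312 FPKM in control against 256, 254, 207 and 228, and Ifi47 was the most abundant of the 11 genes. No member of the group passed the threshold, and the limma adjusted p-values ran from 0.295 to 0.821.

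Gbp2, a guanylate-binding protein that coats pathogen vacuoles, had the smallest p of the group. It measured 30.4, 50.6 and 50.1 FPKM in control and 25.1, 23.0, 12.2 and 14.96 after deletion, every Fth1-deleted library below every control. The mean was 43.7 ± 11.5 against 18.8 ± 6.21 FPKM (SD, n = 3 and 4), 2.32-fold lower. The log2 difference was -1.19 ± 0.34 (SE), with a limma adjusted p of 0.295 and an exact permutation p of 0.0286. Gbp6 also did not overlap, at 3.86, 1.36 and 1.42 FPKM in control and 0.987, 0.960, 0.0425 and 0.589 after deletion (log2 difference -0.93 ± 0.71 (SE), limma adjusted p = 0.698; -0.59 without control 1). It is uncertain, since 59.9% of its length is near-identical to Gbp10 and 61.6% to Gm43302, which was at 0 in every library. The sum of Gbp6 and Gbp10 did not overlap either, at 3.86, 1.42 and 2.05 FPKM against 1.02, 0.960, 0.0425 and 0.589. Gbp10 reached at most 0.627 FPKM, so that sum was nearly Gbp6 alone and does not settle the uncertainty.

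Gbp7 measured 14.5, 18.1 and 31.7 FPKM against 9.29, 11.7, 19.4 and 10.5, where Fth1-deleted 3 lay within the control range (log2 difference -0.69 ± 0.40 (SE), limma adjusted p = 0.614; -0.38 without control 3 and -0.24 with the ribosomal RNA covariate). Gbp8 and Gbp9 spanned 2.56 to 15.1 and 2.79 to 9.64 FPKM in control, and 1.51 to 4.61 and 1.67 to 4.68 after deletion. Gbp3 was the only Gbp member with a difference above 0, at 6.84, 32.6 and 17.5 FPKM against 21.3, 24.96, 23.2 and 19.5. Its control libraries were spread more widely than the Fth1-deleted ones, which all lay within their range.

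Of the Irg genes, Irgm2, a regulatory GTPase that guards the cell's own membranes, had 14.5, 37.8 and 30.5 FPKM in control and 17.0, 8.51, 7.53 and 13.2 after deletion. Control 1 lay within the Fth1-deleted range and the other controls above it (log2 difference -1.15 ± 0.43 (SE), limma adjusted p = 0.428). Igtp, also known as Irgm3, measured 22.0, 54.2 and 73.3 FPKM against 31.3, 32.8, 25.6 and 30.0, with control 1 below every Fth1-deleted library and the other controls above (log2 difference -0.56 ± 0.36 (SE), limma adjusted p = 0.647). That difference was -1.06 without control 1 and -0.21 without control 3. Of its exonic bases, 162 are also annotated to Irgm2, so some reads cannot be assigned between the pair. Iigp1, an effector GTPase, measured 24.6, 50.8 and 15.5 FPKM against 19.2, 13.2, 10.8 and 11.5, and its difference depended on control 2: -0.96 ± 0.42 (SE) with all libraries (limma adjusted p = 0.483) and -0.52 without it. Irgm1, which is needed for HSC quiescence in mice, had 25.4, 49.3 and 27.5 FPKM against 37.1, 27.8, 19.03 and 24.6, and the groups overlapped.

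Ifi47, another effector of this family, was the exception. It had 79.1, 58.1 and 58.8 FPKM in control libraries and 90.2, 108, 80.2 and 95.9 in Fth1-deleted ones, every one above every control, though control 1 and Fth1-deleted 3 were close. The mean was 65.3 ± 11.9 against 93.5 ± 11.5 FPKM (SD, n = 3 and 4), 1.43-fold higher. The log2 difference was 0.52 ± 0.21 (SE), with a limma adjusted p of 0.452 and an exact permutation p of 0.0286. Ifi47 has 111 exonic bases in common with Olfr56 on the same strand; the sum of both genes overlapped between the groups, at 83.0, 58.1 and 61.8 FPKM in control against 92.9, 108, 80.2 and 100.1. Of the 7 matched GTPase genes, Ifi47 was the only one with no ISRE core in any of its windows; 1 of the windows of Gbp3 also lacked it.

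**Figure D3:**
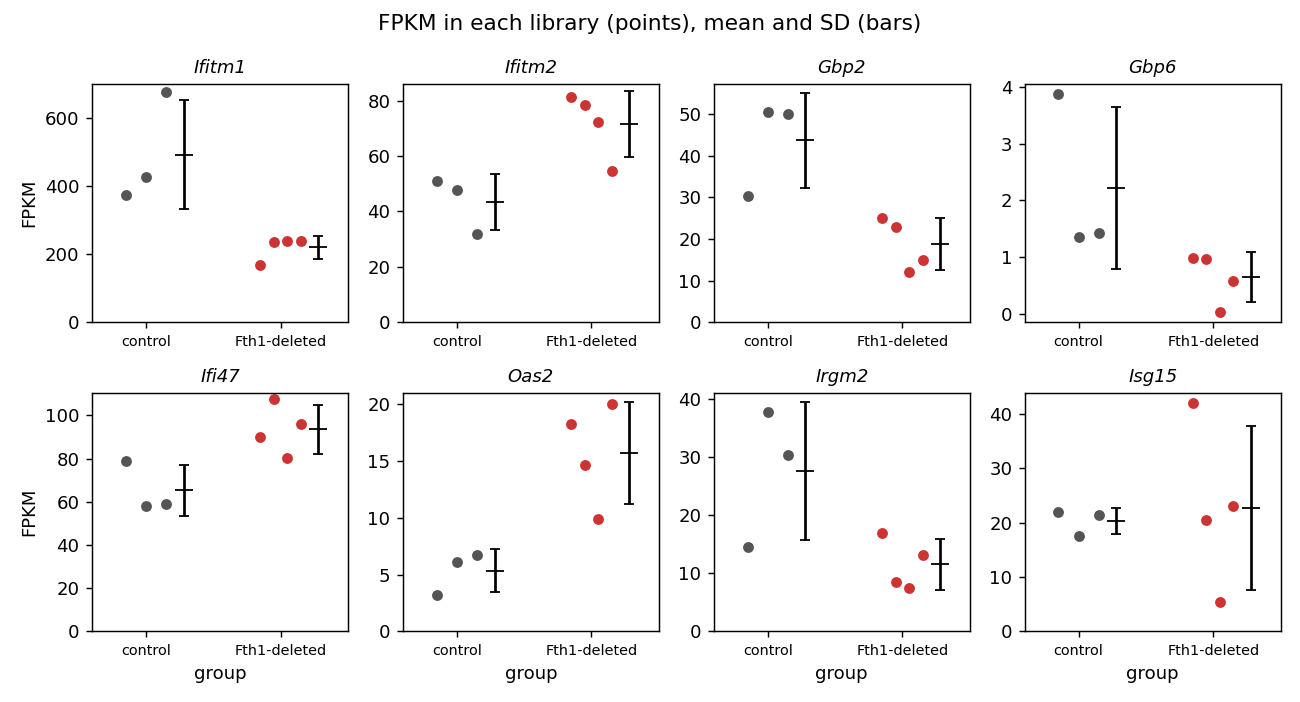
FPKM (y axis, linear, a separate scale for each gene) in each library (points) of the 6 members whose groups did not overlap and of Irgm2 and Isg15, whose groups did; bars are mean and SD of 3 control and 4 Fth1-deleted libraries. Ifitm1, Gbp2 and Gbp6 are lower, and Ifitm2, Ifi47 and Oas2 higher, in all 4 Fth1-deleted libraries.

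Placed in genome order, neighbours did not go one way throughout. On chromosome 3, Gbp5, Gbp7 and Gbp2 had differences below 0 and Gbp3, which lies between Gbp7 and Gbp2, above 0. On chromosome 5, Gbp8, Gbp9, Gbp4 and Gbp6 were all below 0, and Gbp8, Gbp9 and Gbp4 have some exonic bases in common. On chromosome 11, Ifi47 was above 0 while Tgtp2, 12380 bases away, and the other genes drawn were below 0. Gbp5, an inflammasome-promoting GTPase outside the list of members, had 14.1, 32.2 and 17.2 FPKM in control and 5.67, 6.06, 11.3 and 5.03 after deletion, without overlap (log2 difference -1.44 ± 0.45 (SE), limma adjusted p = 0.339). Tgtp2, also outside it, measured 61.5, 66.1 and 61.4 FPKM against 35.7, 24.3, 38.9 and 41.3, without overlap (log2 difference -0.85 ± 0.25 (SE), limma adjusted p = 0.306). Tgtp2 is 99.8% identical to Tgtp1, and the sum of both was 76.4, 92.8 and 89.8 FPKM against 49.4, 41.1, 54.6 and 57.0, also without overlap.

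**Figure D4:**
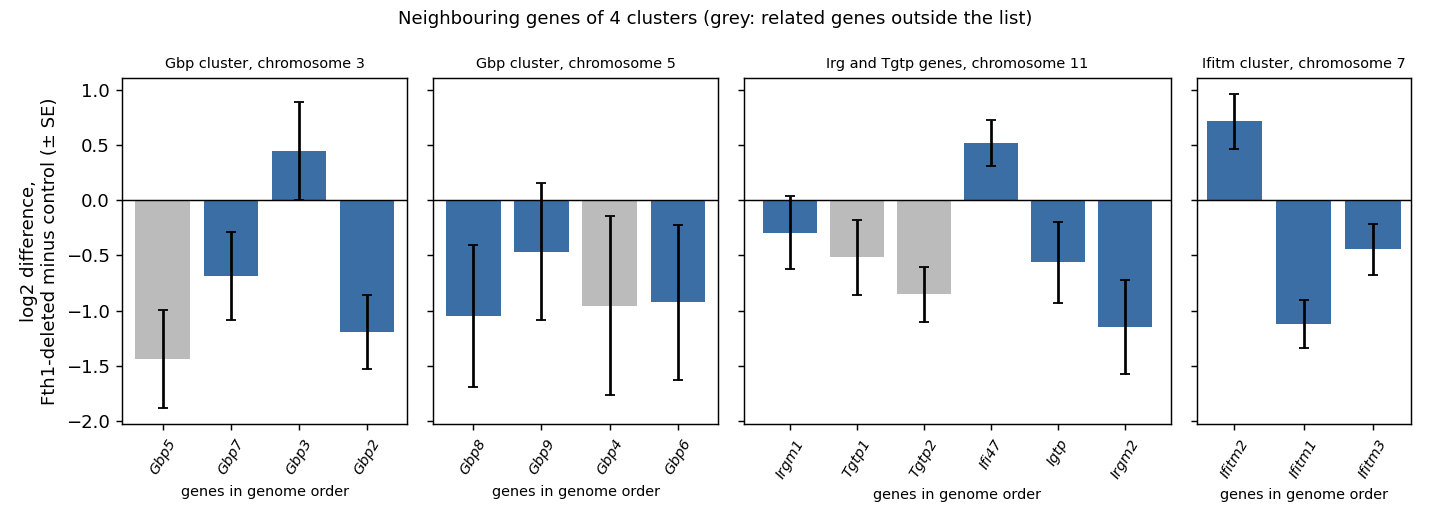
Bars give the log2 difference (y axis, Fth1-deleted minus control, ± 1 SE) of neighbouring genes in genome order (x axis, not to scale) in 4 clusters, blue for members and grey for related genes. Gbp3, Ifi47 and Ifitm2 stand above 0 among neighbours below 0.

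The other genes of the pathway were also without a call. Of 87 listed, 58 were tested and none was called; at an unadjusted p under 0.05 stood 4 (Eif2ak2, Ddx60, Gbp5 and Tgtp2), all lower, by limma, where 9.83% of all genes tested stood (4.93% lower). The groups did not overlap in 5 of the 58, all lower (those 4 and Irf2), where 9.65% of all genes tested did not overlap (5.55% lower). Both counts are near these shares, so neither is a result about this list. Among the 32 other interferon-stimulated genes, 29 were tested and 23 had a difference below 0, with a median of -0.21. All 5 other interferon-inducible GTPases that were tested were below 0, with a median of -0.85, which with the members makes 14 of 16. Of all genes tested, 51.3% were below 0. The 16 GTPases are not all separate measurements. Tgtp1 and Tgtp2 are near-identical, and exonic bases are shared within Gbp4, Gbp8 and Gbp9 and between Igtp and Irgm2. Signal transduction genes had 9 of 15 below 0, and genes upstream of interferon production 6 of 9.

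Eif2ak2, encoding the RNA-activated kinase PKR, had 44.1, 54.5 and 49.3 FPKM in control and 31.9, 30.5, 28.1 and 40.1 after deletion (log2 difference -0.59 ± 0.24 (SE), limma adjusted p = 0.466). Ddx60, a helicase of the RIG-I pathway, measured 7.31, 7.68 and 7.75 FPKM against 4.62, 1.15, 0.825 and 2.75 (log2 difference -1.51 ± 0.59 (SE), limma adjusted p = 0.444). Irf2, a repressor at ISRE sites that protects HSCs from interferon-driven exhaustion in mice, measured 85.5, 85.4 and 99.5 FPKM against 52.0, 75.0, 66.9 and 76.7 (log2 difference -0.42 ± 0.21 (SE), limma adjusted p = 0.553). In all 3 every Fth1-deleted library lay below every control.

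Markers of other blood cells were measured in the same libraries, since several of these cells express interferon-stimulated genes. Macrophage and monocyte markers summed to 160 to 233 FPKM in control and 160 to 287 after deletion. Lyz2 made up most of that sum, at 157, 130.5 and 203 FPKM in control against 152, 107, 121 and 115. The mean log2(FPKM + 1) of this list did not overlap, at 2.04, 1.99 and 2.11 in control against 3.83, 2.31, 3.18 and 3.00. Of these 10 markers, 7 had a difference above 0 and 3 below, Lyz2 among the 3. C1qb and Cd68 were higher in every Fth1-deleted library. Neutrophil markers summed to 2.33 to 44.8 FPKM against 53.7 to 248.8, with Ly6g at 0 in all 7. Without Mpo and Elane, granule genes of myeloid progenitors, the sums overlapped, at 0, 15.9 and 44.6 FPKM in control against 30.3, 39.2, 44.0 and 35.6. B cell markers summed to 27.9 to 319 FPKM against 31.4 to 1485, with all 7 tested above 0. Plasmacytoid dendritic cell markers, of which Bst2 and Irf7 are also members here, summed to 282 to 290 FPKM against 209 to 350, and the defining marker Siglech was at 0 in every library. The remaining lists overlapped: T and NK cell markers 31.3 to 126 FPKM against 98.4 to 154, erythroid 33.7 to 273 against 46.5 to 390, and endothelial and stromal 15.1 to 41.6 against 32.1 to 41.9. The part of these cells in the member values was not tested.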

How the data were processed

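RNA-seq of 7 libraries was deposited by the authors as FPKM per Ensembl gene. Per the submitters' processing notes, HISAT2 2.0.4, HTSeq 0.9.1 and GRCm38 were used; whether counting used strand is not given in the sources used here. Symbols and coordinates came from GENCODE mouse release 21 (55480 of 55855 identifiers matched). The members and gene lists were chosen with earlier results of these data known. Limma 3.58.1 (R 4.3.3), with an intensity trend, was fitted to log2(FPKM + 1) of the 13948 genes averaging 1 FPKM or more; FPKM are not counts, so no count model was the main test. Reads were recovered from the whole steps of FPKM times gene length (whole within 0.05 for 98.8% to 99.4% of values under 50 reads). Library values are printed for members whose groups did not overlap, receptors, transcription factors, and the 3 most abundant members and the 3 with the smallest p of each other role; a few more were added after their values were seen. The procedure was tested on simulated data with 200 changed genes among 13948. It called 0% of them at a log2 change of 1, 45% at 2 and 65% at 3. False calls numbered 0, 4 and 4. Near-identical copies (at least 95% identity over at least 20% of the length) were found with BLAST 2.17.0 between transcripts. Alternatives (17 planned, 2 added after seeing the data) changed pseudocount, filter, scaling, model, covariate or libraries. Some genes of the lists are not reported here by name.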

Additional observations from a re-analysis of the deposited data

Results flagged for a closer look

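In 4 of the 45 members, 1 Fth1-deleted library lay far from the others (its gap to the nearest, over the group's range, was above Dixon's 95% critical value for 4 samples). Ifitm1 had its lowest value, 170.1 FPKM, in Fth1-deleted 1, below 236 to 239 in the others. Dhx58 had its highest value, 39.48 FPKM, in Fth1-deleted 2, above 22.9 to 24.0. Ifih1 had its highest value, 34.84 FPKM, in Fth1-deleted 3, above 19.7 to 21.9. Trim30a had its highest value, 72.57 FPKM, in Fth1-deleted 2, above 45.2 to 49.2. Chance flags about 1 in 20 groups. The 3-library control group was not examined this way.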

How the results depend on the processing

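No member was called under any of the 19 alternatives, and the median over all members stayed below 0 in each (-0.228 to -0.099). Over the 20 settings, 27 of the 45 members kept 1 sign wherever they passed the filter. Of the 22 genes, members and others, followed through the alternatives, 21 did so. Many of the 22 had groups that did not overlap. Leaving out 1 library or changing the pseudocount cannot turn the sign of such a gene. Irf7, the exception among the 22, turned to -0.386 with the ribosomal RNA share as a covariate. Under that covariate the GTPase median was -0.983, the antiviral median 0.452 and the number of genes called 2 (1612 at an unadjusted p under 0.05). Leaving out 1 library gave GTPase medians of -0.918 to -0.520, antiviral medians of -0.225 to 0.407 and 0 to 4 genes called by limma (1021 to 1644 at an unadjusted p under 0.05), against 8 with all libraries. The antiviral median was also above 0 with array weights (0.111), with a Y-linked term, separating libraries by their Y-linked reads (0.022), and without control 3 (0.015). Genes called by limma numbered 0 without a filter (1504 at an unadjusted p under 0.05), 17 without a trend, 17 with the Y-linked term and 5 with limma-voom on recovered reads; with the Y-linked term Fth1 was at -1.744 (adjusted p = 0.0491, 0.0491 to 0.684 over its alternatives). With the replicate block, which leaves Fth1-deleted 4 without a partner and so without weight, 0 genes were called (987 at an unadjusted p under 0.05); correlations of same-numbered libraries were 0.009, 0.061 and -0.037, so the numbers were not taken to pair the libraries. The cause of these changes was not tested. Counting error was small beside the spread between control libraries (median coefficient of variation of members 3.94% against 37.3%).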
